A study of Rattus norvegicus with 16 samples.

Results

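Genes of the secretory epithelium of the oviduct were followed on ovary arrays. A list of 9 genes was taken, namely Pax8, Elf3, Epcam, Cdh1, Cldn3, Cldn4, Krt7, Wfdc2 and Ovgp1. A gene counted as measured where a probe carried its name in the array files, and the probe with the highest mean over all arrays was used. Of the 9 genes, 8 were read by 13 probes in all, of 45598 non-control probes on the array, and all 8 were among the 20227 features tested. No probe used here carried the name Ovgp1, which encodes oviductin, so it was not analysed here.

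The 16 ovaries came from female rats of the Sprague-Dawley stock Jcl:SD, with 1 array per ovary and 4 ovaries in each of 4 groups. The groups were BRCA1+/- rats given olaparib, BRCA1+/- rats given vehicle, wild-type (WT) rats given olaparib and WT rats given vehicle. Olaparib, which blocks the ADP-ribosylating enzymes PARP1 and PARP2, was injected under the skin every day for 14 days at 50 mg/kg, starting at 3 weeks of age, and the ovaries were removed 24 h after the last dose. BRCA1+/- rats are heterozygous for a change in Brca1, whose protein repairs double-strand breaks by homologous recombination. The composition of the vehicle, its schedule, the age of the vehicle rats and the kind of Brca1 allele are not given in the sources used here. Whether vehicle and olaparib ovaries were matched in age and time could not be checked. No label says whether the oviduct, bursa or fat around the ovary was trimmed away.

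The oviduct is lined by secretory and ciliated cells that derive from the Müllerian duct epithelium. Its secretory cells are marked by the paired-box factor Pax8, by adhesion and tight junction proteins of simple epithelia and by secreted proteins such as Wfdc2 and oviductin. The ovary itself carries a single outer layer of surface epithelium, which is of mesothelial type and shares keratins with the oviduct but bears no motile cilia. Several of the genes are also used as markers of ovarian carcinoma, and the secretory cell of the tube is held to be a source of that tumour in BRCA1 carriers.

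Levels are given as the log2 signal, which is the log2 of the processed spot intensity minus the 75th percentile of its array, so that 0 is the 75th percentile of an array and a step of 1 is a doubling. The 75th percentile of the processed signal, before taking logs, lay between 202 and 566. Between 55.5% and 60.7% of the probes exceeded background clearly enough to be called well above it by the scanner software, and 0 spots were saturated. Ovaries 1 and 2 of every group were hybridised on slide 1 and ovaries 3 and 4 on slide 2. Ovarian markers were present, though not all at an even level. Inha, a granulosa cell hormone subunit, ranged from 7.19 to 8.84, and Cyp11a1, which makes pregnenolone, from 8.18 to 10.11. Cyp17a1, the androgen-forming enzyme of theca cells, read -1.93 on BRCA1+/- olaparib ovary 4 and -1.57 and -1.74 on WT vehicle ovaries 2 and 4, against 3.70 to 6.41 on the others. Star, which carries cholesterol into mitochondria, read 0.51 on WT olaparib ovary 3 and 5.36 to 7.16 elsewhere. The number of arrays limits the precision of all values below. In whole ovaries, fewer cells of a type and less RNA per cell cannot be told apart.

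Pax8 specifies the Müllerian epithelium and persists in its secretory cells. Its probe (chr3:2671539-2671598 of rn4, minus strand) was well above background on all 16 arrays. In BRCA1+/- ovaries 1, 2, 3 and 4 the log2 signal was -0.88, -1.91, 0.88 and -0.04 with olaparib and -1.0, -2.51, 2.38 and -0.77 with vehicle. In WT ovaries it was 2.34, -1.19, 2.09 and -1.97 with olaparib and -1.36, -2.97, -0.66 and -0.93 with vehicle. BRCA1+/- vehicle ovary 3 and WT olaparib ovaries 1 and 3 stood at about the same high level, with BRCA1+/- olaparib ovary 3 next, and no WT vehicle ovary was near them.

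Elf3, an ETS family transcription factor confined largely to epithelia, varied most among the 8 genes. Its log2 signal was -3.89, -2.56, 3.79 and 2.06 in BRCA1+/- ovaries with olaparib and -1.54, -5.46, 4.72 and 1.40 in those with vehicle. WT ovaries had 4.19, -3.36, 3.24 and -1.31 with olaparib and -2.02, -1.86, -3.07 and -3.78 with vehicle. The highest and the lowest ovary both had the BRCA1+/- genotype and vehicle, 10.18 apart on the log2 scale or 1160-fold. The low end of this range is 1 dim value, -5.46, and the next lowest was -3.89. It was called well above background, but the dimmest probes so called lay at -5.81 (median over arrays). A set of 6 ovaries was above 0 for Elf3, namely numbers 3 and 4 of BRCA1+/- olaparib and of BRCA1+/- vehicle and numbers 1 and 3 of WT olaparib.

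Epcam encodes a homophilic adhesion protein of simple epithelia. It had log2 signals of -2.59, -2.11, 1.89 and 1.77 in BRCA1+/- ovaries with olaparib and -2.55, -2.62, 2.74 and 0.77 in BRCA1+/- ovaries with vehicle. WT ovaries had 3.43, -2.06, 2.30 and -2.44 with olaparib and -1.73, -1.79, -3.39 and -2.16 with vehicle. The values split into the same 6 high ovaries and 10 low ones, with a gap of 2.51 between the sixth and the seventh, and the range was 6.82, or 113-fold.

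The Epcam probe covers coordinates chr6:11181855-11182638 of rn4 on the plus strand. It has 60 bases but spans 784 bases of the genome. The Cldn3 probe is placed at chr12_random:771373-771432, minus strand. Both are shown because they are the letters by which the array reads these transcripts.
Epcam probe: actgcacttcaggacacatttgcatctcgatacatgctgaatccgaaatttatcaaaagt
Cldn3 probe: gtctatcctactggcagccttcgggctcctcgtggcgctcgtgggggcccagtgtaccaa

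Cldn4, a claudin that seals tight junctions, split in the same way as Epcam. Its log2 signal was -4.78, -4.90, 0.76 and -0.40 in BRCA1+/- ovaries with olaparib and -5.10, -4.57, 1.82 and -0.87 in BRCA1+/- ovaries with vehicle. WT ovaries had 2.19, -4.34, 1.09 and -3.19 with olaparib and -4.49, -3.90, -6.08 and -4.63 with vehicle. Cldn4 was not well above background on WT vehicle ovary 3 and BRCA1+/- vehicle ovary 1, so its range of 8.28 is set at the low end by dim signals. A second Cldn4 probe was well above background on 6 arrays, exactly those of the 6 high ovaries, where it read between -2.48 and 0.29.

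Cldn3, the other tight junction claudin of the list, was well above background on all 16 arrays and had a narrower range of 5.69. Its log2 signal lay between -1.36 and 1.67 in BRCA1+/- ovaries with olaparib, -0.79 and 2.39 in BRCA1+/- ovaries with vehicle, -0.92 and 3.27 in WT ovaries with olaparib and -2.42 and -0.35 in WT ovaries with vehicle. The 6 highest ovaries were again the same, but only 0.58 separated the sixth from the seventh.

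Krt7 encodes a type II keratin of simple epithelia that both oviduct and surface epithelium carry. BRCA1+/- ovaries had 2.51, -0.07, 4.36 and 2.91 with olaparib and 0.69, 0.07, 4.95 and 2.29 with vehicle. WT ovaries had 4.59, 2.55, 4.55 and -0.93 with olaparib and 1.93, -0.78, -0.33 and 1.47 with vehicle. Some ovaries low for Epcam and Cldn4 were intermediate for Krt7. BRCA1+/- olaparib ovary 1, at 2.51, and WT olaparib ovary 2, at 2.55, lay above BRCA1+/- vehicle ovary 4, which was high for Epcam. On those ovaries the mean of 10 surface epithelium and mesothelium genes, each centred over the 16 arrays, was 0.52 and 0.95, and that of 19 ciliated cell genes was -2.25 and -2.09. The part of surface epithelium in the Krt7 signal was not tested.

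Wfdc2 encodes HE4, a secreted whey-acidic-protein domain protein made by oviduct epithelium. Its log2 signal was 3.36, 3.57, 4.37 and 3.29 in BRCA1+/- ovaries with olaparib and 3.65, 3.62, 4.92 and 4.03 in BRCA1+/- ovaries with vehicle. WT ovaries had 5.47, 3.25, 5.58 and 3.21 with olaparib and 3.44, 3.21, 3.97 and 3.19 with vehicle. The range of 2.40, or 5.27-fold, was the narrowest of the 8 genes, and on the 10 other ovaries Wfdc2 stayed between 3.19 and 3.97. Its SD over the 16 arrays was at the 84.8th percentile of all features, against 95.4 to 99.7 for the other 7 genes.

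Cdh1 encodes E-cadherin, the calcium-dependent cadherin of adherens junctions, which in mice is also made by oocytes. BRCA1+/- ovaries had 1.59, 3.13, 3.52 and 1.45 with olaparib and 2.42, 3.26, 3.13 and 2.77 with vehicle. WT ovaries had 3.64, 1.74, 3.33 and 1.16 with olaparib and 1.12, -0.70, 1.88 and -0.54 with vehicle. Cdh1 followed the 6 ovaries less closely than the other genes. BRCA1+/- olaparib ovary 2 and BRCA1+/- vehicle ovary 2 were among the 6 highest for Cdh1, while they were low for Epcam, at -2.11 and -2.62.

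**Figure D1:**
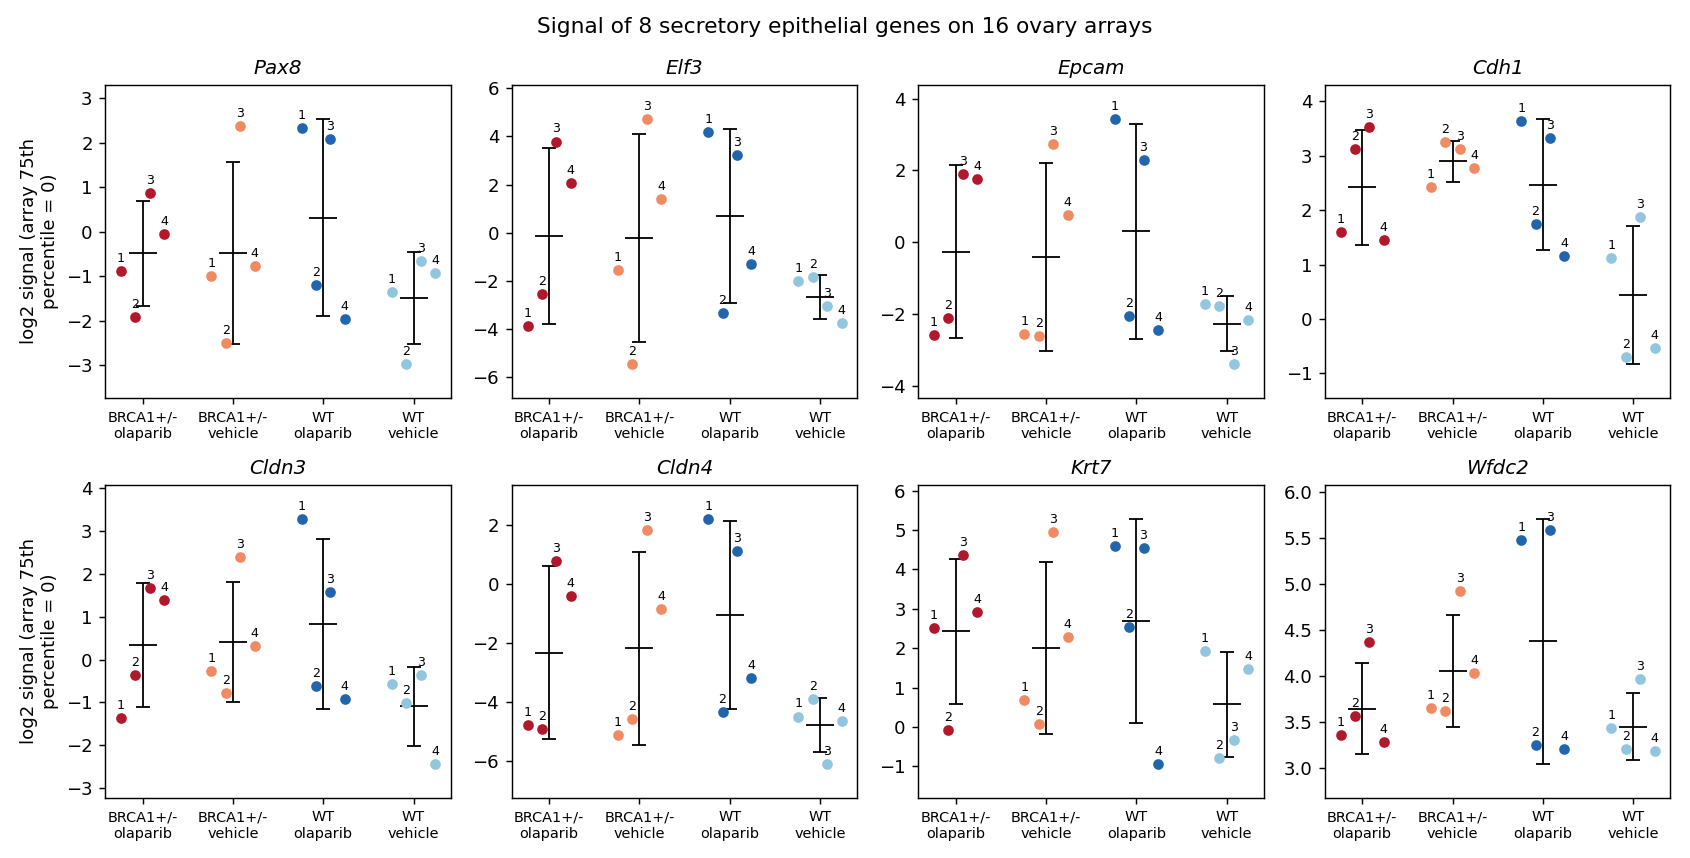
Log2 signal (array 75th percentile set to 0) of the 8 measured genes in each of 16 ovaries, by group, with ovary numbers beside the points and bars for mean and SD of 4 ovaries. Epcam, Elf3 and Cldn4 split into 6 high and 10 low ovaries, no WT vehicle ovary is among the high ones, and for Cdh1 all 4 BRCA1+/- vehicle ovaries lie above all WT vehicle ovaries.

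Read by rank, BRCA1+/- olaparib ovary 3, BRCA1+/- vehicle ovary 3 and WT olaparib ovaries 1 and 3 were among the 6 highest for 8 of 8 genes. BRCA1+/- olaparib ovary 4 was among them for 6 of 8 and BRCA1+/- vehicle ovary 4 for 5 of 8. These last ovaries differed from the other 4 in which genes were high. On BRCA1+/- olaparib ovary 4 Elf3, Epcam and Cldn4 were 2.66, 2.43 and 2.19 above their own means over 16 arrays, while Wfdc2 and Cdh1 were at -0.59 and -0.61. On BRCA1+/- vehicle ovary 4 the same 3 genes were 1.99, 1.43 and 1.72 above their means, and Pax8 and Wfdc2 were at -0.24 and 0.14. Klf5, an epithelial Krüppel-like factor, split these ovaries more sharply. It read 0.67 on BRCA1+/- olaparib ovary 4 and 0.72 on BRCA1+/- vehicle ovary 4, against 2.50 to 4.12 on the 4 ovaries that were high for all 8 genes.

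After centring each gene, the mean absolute difference between the profiles of a pair of genes was smallest for Epcam and Cldn4, at 0.59 on the log2 scale. It was 0.68 for Pax8 and Krt7 and for Wfdc2 and Cdh1, and 0.78 for Cldn4 and Elf3. The largest was 2.39, between Cdh1 and Elf3. Such values grow with how widely a gene varies. The median difference from all other features with a symbol was 0.736 for Wfdc2, 1.159 for Cdh1 and 1.375 for Pax8. It was 1.731 for Krt7, 2.168 for Epcam, 2.578 for Cldn4 and 2.931 for Elf3. Wfdc2 was thus hardly nearer to Cdh1 than to a typical feature. The pair values are descriptions over 16 arrays that fall into separate clusters, and no correlation is given for them.

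The arrays carry other cell types, and their lists were read beside the 8 genes. The list of ciliated epithelium, with 19 tested genes of 24, had a mean centred level above 0 on the 6 high ovaries, from 1.56 to 3.97, and from -2.67 to -0.45 on the other 10. Its strongest genes by mean signal were Tppp3, Rsph1 and Ccno. Tppp3 read 4.96 to 7.19 on the 6 ovaries and 0.77 to 2.98 on the other 10, and Rsph1 1.63 to 4.49 and -1.99 to 0.42. Ccno did not separate them fully, at 0.01 to 2.25 and -1.16 to 0.16. Foxj1, the master regulator of motile cilia, which was named after its values were seen, read 3.30 and 2.18 on BRCA1+/- olaparib ovaries 3 and 4, 4.24 and 1.91 on BRCA1+/- vehicle ovaries 3 and 4, and 4.06 and 3.85 on WT olaparib ovaries 1 and 3. On the WT vehicle ovaries it read -2.93, -1.69, -4.58 and -4.47. Secretory and ciliated genes were thus high on the same ovaries, and on WT vehicle ovaries 11 to 17 of the 19 ciliated genes were well above background. How far the presence of oviduct tissue sets the levels of the 8 genes was not tested.

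**Figure D2:**
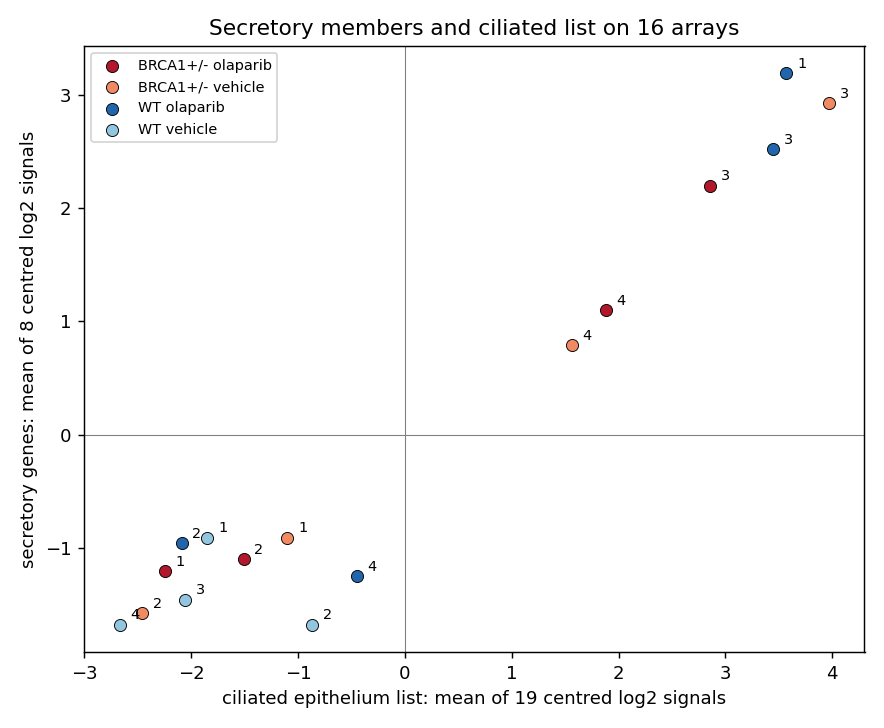
Mean centred log2 signal of the 8 secretory genes (vertical axis) against that of 19 ciliated epithelium genes (horizontal axis), with a point for each of 16 ovaries. The 6 ovaries at upper right are BRCA1+/- olaparib 3 and 4, BRCA1+/- vehicle 3 and 4 and WT olaparib 1 and 3; the 10 others, with all WT vehicle ovaries, lie below 0 on both axes.

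The mean levels of the smooth muscle and adipocyte lists were also higher on most of the 6 ovaries. The mean centred level of smooth muscle genes, 10 of 10 tested, was 0.79 and 0.08 on BRCA1+/- olaparib ovaries 3 and 4, 0.81 and 0.20 on BRCA1+/- vehicle ovaries 3 and 4, 0.32 and 0.40 on WT olaparib ovaries 1 and 3, and -0.75 to 0.24 on the 10 others. Actg2, an enteric smooth muscle actin, read 7.23 and 6.07, 7.32 and 5.95, and 5.93 and 6.44 on these ovaries in the same order, all above the 4.38 to 5.77 of the 10 others. Synm and Tagln, the next genes of that list by mean signal, did not separate the ovaries. Synm read 3.29 to 4.02 on the 6 ovaries and 3.46 to 4.30 on the 10 others. Tagln read 3.74 to 4.55 on the 6 and 2.82 to 4.31 on the 10 others. The adipocyte list, with 8 tested genes of 11, was at 0.45 and 0.40 on BRCA1+/- olaparib ovaries 3 and 4, 0.92 and 0.57 on BRCA1+/- vehicle ovaries 3 and 4, and 3.70 and 0.50 on WT olaparib ovaries 1 and 3. It was also at 2.48 on WT olaparib ovary 2, where the secretory genes averaged -0.96, and at -2.52 to 0.23 on the other 9. Its genes did not all follow the mean. Above their own median were 4 and 4 of 8 on BRCA1+/- olaparib ovaries 3 and 4, 6 and 7 on BRCA1+/- vehicle ovaries 3 and 4, and 8 and 5 on WT olaparib ovaries 1 and 3. The part of smooth muscle or fat in the values of the 8 genes was not tested. The mean centred level of granulosa genes ranged only from -0.39 to 0.58 over all 16 arrays. Limma called 0 genes of these lists in each of the 5 comparisons below. At an unadjusted p of 0.05 the highest share was 5 of 8, for adipocyte genes with olaparib in WT rats, against 4.33% of all features. In that comparison 4 of 19 ciliated genes and 6 of 30 epithelial junction genes passed. So did 4 of 12 epithelial regulators, a list with 6 genes higher, 6 lower and a median of -0.04. For olaparib in WT rats the median difference was 3.26 for ciliated, 3.09 for adipocyte, 0.98 for surface epithelium, 0.24 for smooth muscle, 0.02 for theca, -0.09 for oocyte and -0.10 for granulosa genes.

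**Figure D3:**
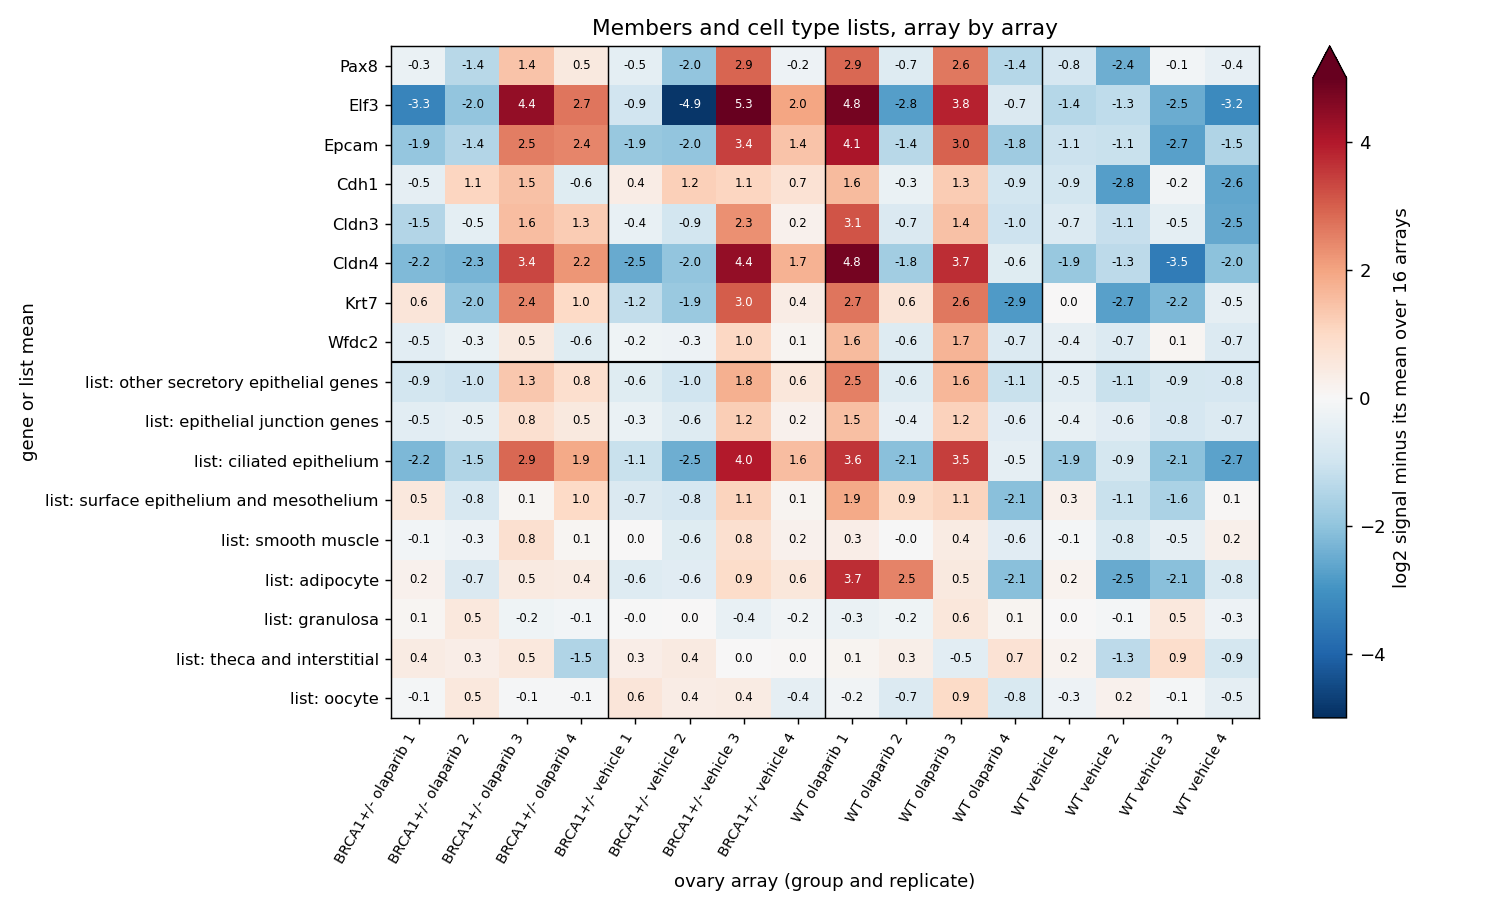
Centred log2 signal (each gene minus its mean over 16 arrays) of the 8 genes, above the line, and mean centred level of 9 cell type lists, below it, for each ovary. Red cells of the list rows for secretory, junction and ciliated genes share the same 6 columns. The adipocyte row is also above 0 in these columns, at 0.40 to 3.70, and is at 2.48 for WT olaparib 2, where the secretory genes are low.

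Promoters were available from RefSeq (build GRCr8) for 5 of the 9 genes, namely Cldn3, Elf3, Epcam, Pax8 and Wfdc2. They are shown because these genes were all high on the 4 ovaries that were high for all 8 genes. Pax8 ranked only 7 of 16 on BRCA1+/- vehicle ovary 4, and Wfdc2 only 12 of 16 on BRCA1+/- olaparib ovary 4. The 250 bases before each start are printed 5′ to 3′ on the gene's own strand, with capitals on the letters CACCTG or, on the other strand, CAGGTG. This hexamer is the E-box known to be bound by the ZEB and SNAI repressors of epithelial genes.
Pax8 promoter: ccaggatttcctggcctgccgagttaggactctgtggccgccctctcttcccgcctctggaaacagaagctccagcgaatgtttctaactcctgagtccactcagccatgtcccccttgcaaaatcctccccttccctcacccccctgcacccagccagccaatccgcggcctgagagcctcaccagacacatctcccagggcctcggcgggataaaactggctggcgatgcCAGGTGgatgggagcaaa
Elf3 promoter: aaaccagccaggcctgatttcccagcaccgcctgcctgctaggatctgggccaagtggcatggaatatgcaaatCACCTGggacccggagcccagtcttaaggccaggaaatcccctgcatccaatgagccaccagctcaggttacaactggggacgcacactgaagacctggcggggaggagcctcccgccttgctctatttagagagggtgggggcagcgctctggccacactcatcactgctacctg
Epcam promoter: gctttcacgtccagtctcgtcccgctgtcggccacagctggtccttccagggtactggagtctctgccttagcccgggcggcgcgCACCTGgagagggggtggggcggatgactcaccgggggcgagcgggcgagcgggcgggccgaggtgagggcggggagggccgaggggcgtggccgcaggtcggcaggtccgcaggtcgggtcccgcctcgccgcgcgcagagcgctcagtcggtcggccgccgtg
Cldn3 promoter: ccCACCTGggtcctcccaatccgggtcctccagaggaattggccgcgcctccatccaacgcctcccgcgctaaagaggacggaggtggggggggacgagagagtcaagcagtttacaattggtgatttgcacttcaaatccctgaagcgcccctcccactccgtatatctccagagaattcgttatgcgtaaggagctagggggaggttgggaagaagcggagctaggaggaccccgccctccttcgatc
Wfdc2 promoter: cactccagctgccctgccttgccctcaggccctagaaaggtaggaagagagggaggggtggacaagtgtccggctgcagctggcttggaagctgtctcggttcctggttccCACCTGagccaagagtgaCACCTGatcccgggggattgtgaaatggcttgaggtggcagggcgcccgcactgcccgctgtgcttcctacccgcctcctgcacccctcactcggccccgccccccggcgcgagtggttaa

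These windows are chr3:27640632-27640881 (minus) for Pax8, chr13:49247087-49247336 (minus) for Elf3, chr6:12649679-12649928 (minus) for Epcam, chr12:27346548-27346797 (minus) for Cldn3 and chr3:173706225-173706474 (plus) for Wfdc2. In windows of 300 bases, which add the first 50 transcribed bases, the hexamer was searched on both strands and was found in all 5 promoters. Of all 33469 rat promoters of that length, 18.8% hold it. Its first base lay at -18 in Pax8, -176 in Elf3, -165 in Epcam and -248 in Cldn3, counted from the start. Wfdc2 had it at -139, at -121 and at 27. None of the 5 windows held AACNNGTT, the letters of the Grainyhead-like site (4.2% of all promoters), or CCGGAA, an ETS core (15%). Such matches describe letters only.

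Among 12 tested genes of the 16 listed epithelial regulators, 0 were called in any comparison. The repressors Zeb1 and Zeb2, which bind this E-box, were among the 3 regulators named by mean signal. Zeb1 read between 1.12 and 2.30 on all 16 arrays and Zeb2 between 1.47 and 3.07. The lowest Zeb1 value was that of BRCA1+/- vehicle ovary 3 and the next that of BRCA1+/- olaparib ovary 3, at 1.58, which are both ovaries high for the secretory genes. Zeb2 did not follow this order. Its lowest value, 1.47, was that of WT vehicle ovary 4, which was low for the secretory genes, and BRCA1+/- olaparib ovary 3 read 2.92. Esrp1, an epithelial splicing regulator named after its values were seen, read 1.21 to 2.11 on the 4 ovaries high for all 8 genes and -1.76 to 0.07 on the other 12.

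Olaparib was compared with vehicle in WT rats to ask what the drug does with both copies of Brca1 intact. All 8 genes had higher means with olaparib, with a median difference of 2.07 on the log2 scale against -0.07 over all features. None of the 8 passed limma at a Benjamini-Hochberg adjusted p of 0.05 over all features, and 0% of all 20227 features passed (lowest adjusted p 0.965). At an unadjusted p of 0.05, 1 of the 8 was below the threshold, against 4.33% of all features. The gene was Cdh1, with 2.47 ± 1.21 in WT olaparib ovaries and 0.44 ± 1.27 in WT vehicle ovaries (SD, n = 4 each). Its difference was 2.03 ± 0.68 (SE, 95% interval 0.57 to 3.48; limma p 0.00959, adjusted p 0.965; two-sided exact permutation p 0.114).

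The largest difference in means was that of Cldn4, at -1.06 ± 3.19 in WT olaparib ovaries and -4.78 ± 0.93 in WT vehicle ovaries (SD, n = 4 each). It came to 3.71 ± 1.78 (SE, 95% interval -0.09 to 7.52) and 3 of 4 olaparib ovaries lay above all vehicle ovaries (two-sided exact permutation p 0.0571, limma adjusted p 0.965). Elf3 differed by 3.37 (95% interval -1.31 to 8.06), Epcam by 2.57 (-0.70 to 5.84), Krt7 by 2.11 (-0.71 to 4.94), Cldn3 by 1.92 (-0.14 to 3.97), Pax8 by 1.80 (-0.56 to 4.16) and Wfdc2 by 0.93 (-0.19 to 2.04). For these 6 genes the olaparib group held a pair of ovaries far above the vehicle range and a pair within or near it. The ciliated list moved with these genes, with 19 of 19 genes higher in mean and a median of 3.26. Groups overlapped for all 8 genes, where 1.16% of all features did not overlap. Without the 6 ovaries of high ciliated level, a set chosen after seeing the data that leaves 2 WT olaparib ovaries, the median of the 8 genes was 0.28. These 6 are also the ovaries with the highest mean of the 8 genes, so a smaller difference follows from the choice itself.

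Olaparib in BRCA1+/- rats asks the same with 1 copy of Brca1. Here the means of the 8 genes were close, 3 higher and 5 lower with olaparib, with a median of -0.05 (0.02 over all features). With 1 of the BRCA1+/- arrays left out in turn the median lay between -0.60 and 1.06, the highest without BRCA1+/- vehicle ovary 3. Limma called 0 of 8, and 0% of all features (lowest adjusted p 1). The groups overlapped for all 8 genes, and 1.11% of all features had groups that did not. At an unadjusted p of 0.05, 0 of 8 genes and 1.17% of all features passed. Each group held 2 of the 6 high ovaries. The intervals were wide, from -4.61 to 4.75 around 0.07 for Elf3 and from -1.52 to 0.71 around -0.40 for Wfdc2, so differences of several fold in either direction lie within them for most of these genes.

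The genotype comparison with vehicle sets BRCA1+/- against WT ovaries without the drug. All 8 genes had higher means in BRCA1+/- ovaries, with a median of 1.68 against -0.06 over all features. With 1 array left out in turn this median lay between 0.81 and 2.21, the lowest without BRCA1+/- vehicle ovary 3. Limma called 0 of 8, and 0% of all features (lowest adjusted p 0.592). At an unadjusted p of 0.05, 1 of 8 passed, against 5.5% of all features, and it was again Cdh1. Cdh1 averaged 2.89 ± 0.38 in BRCA1+/- vehicle ovaries and 0.44 ± 1.27 in WT vehicle ovaries (SD, n = 4 each). All 4 BRCA1+/- vehicle ovaries lay above all 4 WT vehicle ovaries, the lowest at 2.42 against the highest at 1.88. The difference was 2.45 ± 0.68 (SE, 95% interval 1.00 to 3.90), or 5.47-fold, with a limma p of 0.00271 and an adjusted p of 0.862, so it did not pass. The two-sided exact permutation p was 0.0286, the smallest that 4 against 4 can give, among 32 such tests of members. Groups that did not overlap with BRCA1+/- higher made up 1.25% of all features, and those not overlapping in either direction 3.44%.

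The Cdh1 difference was of similar size in the subsets of arrays tried. It was 2.63 within slide 1 and 2.28 within slide 2, between 2.07 and 2.93 with any 1 array left out, and 2.40 without the 6 ovaries of high ciliated level. Over all alternatives with a test its adjusted p lay between 0.277 and 1. WT vehicle ovaries 2 and 4, at -0.70 and -0.54, had the lowest Cdh1 of all 16. On WT vehicle ovaries 1, 2, 3 and 4 the theca and interstitial list (6 genes) was at 0.18, -1.32, 0.87 and -0.89. This mean was high and low on the same ovaries as Cdh1. A single gene, Cyp17a1, weighs heavily in it, at 4.63, -1.57, 4.90 and -1.74. Above their own median were 4, 1, 5 and 3 of the 6 genes, so ovary 4 was not low for the list as a whole. On the BRCA1+/- vehicle ovaries the theca and interstitial list was at 0.32, 0.43, 0.02 and 0.04. The oocyte list (9 of 10 genes) was at 0.61, 0.39, 0.42 and -0.44 on BRCA1+/- vehicle ovaries and at -0.27, 0.21, -0.11 and -0.45 on WT vehicle ovaries. The part of theca cells or oocytes in the Cdh1 values was not tested.

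For the other 7 genes the difference was larger on slide 2 than on slide 1. Elf3 differed by 2.46 in all (95% interval -2.22 to 7.15), by -1.56 within slide 1 and by 6.49 within slide 2. Epcam differed by 1.85 (-1.42 to 5.12), by -0.83 on slide 1 and 4.53 on slide 2. Cldn4 differed by 2.60 (-1.21 to 6.40), by -0.64 and 5.83 on slides 1 and 2. Both high BRCA1+/- vehicle ovaries were on slide 2. Krt7 differed by 1.43 (-1.40 to 4.25), with -0.20 on slide 1 and 3.05 on slide 2. Cldn3, Pax8 and Wfdc2 were higher in BRCA1+/- vehicle ovaries on both slides, by 0.28, 0.41 and 0.31 on slide 1 and by 2.74, 1.60 and 0.89 on slide 2. Without the 6 ovaries of high ciliated level, which leaves 2 BRCA1+/- vehicle ovaries, the median of the 8 genes was -0.13. Here too the drop follows from leaving out the ovaries with the highest mean of these genes. Of the ciliated genes, 19 of 19 had higher means in BRCA1+/- vehicle ovaries, with a median of 2.32.

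**Figure D4:**
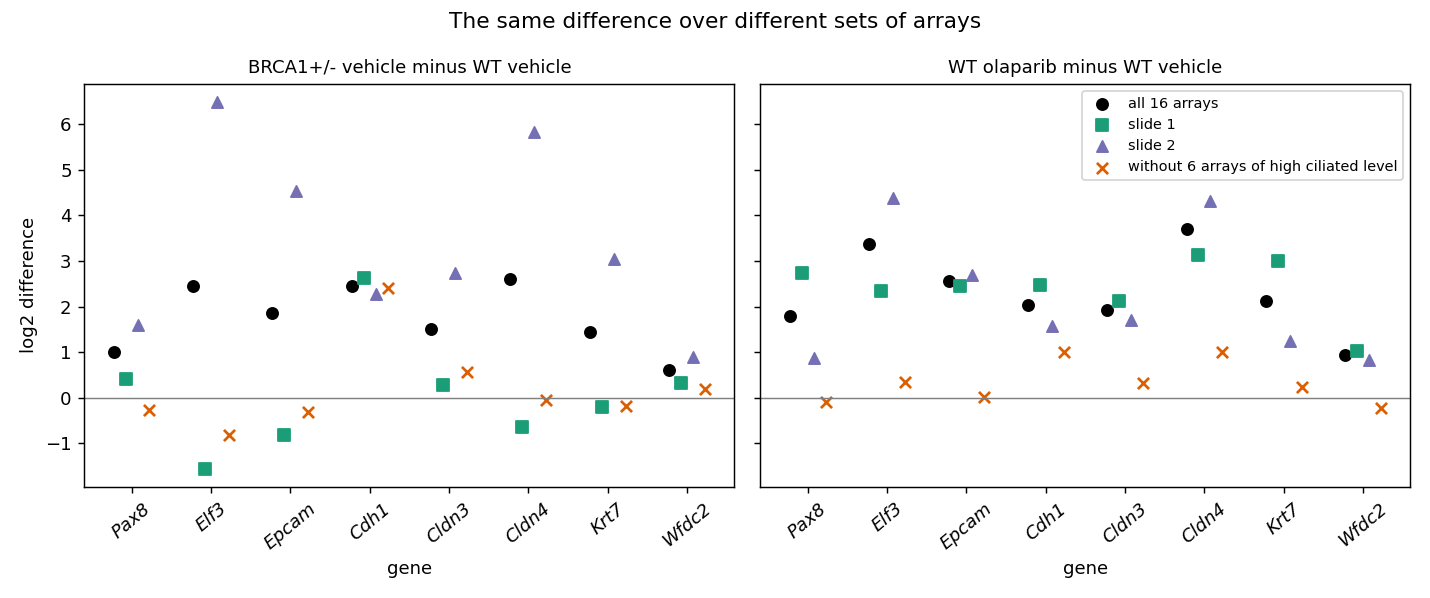
Log2 difference of each gene for BRCA1+/- vehicle minus WT vehicle (left) and WT olaparib minus WT vehicle (right), over all 16 arrays, within slide 1, within slide 2 and without the 6 ovaries of high ciliated level. For BRCA1+/- vehicle against WT vehicle the Cdh1 symbols lie together between 2.28 and 2.63, while those of Elf3 spread from -1.56 to 6.49.

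With olaparib in both groups, BRCA1+/- ovaries had lower means than WT ovaries for 8 of 8 genes, with a median of -0.65 (0.02 over all features). With 1 array left out in turn the median lay between -1.47 and 0.33, so its sign was not stable. It was 0.33 without WT olaparib ovary 1, -0.10 without WT olaparib ovary 3, and -0.11 and -0.27 without BRCA1+/- olaparib ovaries 1 and 2. It was -1.47 and -1.21 without WT olaparib ovaries 4 and 2, and -1.11 without BRCA1+/- olaparib ovary 3. Limma called 0 of 8 and 0% of all features (lowest adjusted p 1), and at an unadjusted p of 0.05 the counts were 0 of 8 and 0.915%. The groups overlapped for all 8 genes, and 0.583% of all features had groups that did not. The size was largest for Cldn4, at -1.27 (95% interval -5.07 to 2.54), and smallest for Cdh1, at -0.04 (-1.49 to 1.41). The sign turned between the slides for 7 of 8 genes, for example with -3.64 within slide 1 and 1.96 within slide 2 for Elf3. Wfdc2 was lower on both, by -0.89 and -0.56. The high ovaries were numbers 3 and 4 of BRCA1+/- olaparib, both on slide 2, number 1 of WT olaparib on slide 1 and number 3 of WT olaparib on slide 2.

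The interaction subtracts the WT response to olaparib from the BRCA1+/- response. It was below 0 for 8 of 8 genes, with a median of -2.21 against 0.08 over all features. With 1 array left out in turn the median lay between -2.91 and -1.28. It was -1.28 without WT olaparib ovary 1 and -1.35 without BRCA1+/- vehicle ovary 3. Limma called 0 of 8 and 0% of all features (lowest adjusted p 0.968). At an unadjusted p of 0.05, 1 of 8 passed, against 3.44% of all features. This was Cdh1, with -2.49 ± 0.96 (SE, 95% interval -4.55 to -0.44; limma p 0.0206, adjusted p 0.968). All 4 groups enter the interaction, so it shares the WT vehicle ovaries with both comparisons above that had positive medians, and it is not separate evidence. Within the slides it was below 0 for all 8 genes on both, with medians of -2.29 and -1.79. Without the 6 ovaries of high ciliated level, which are also those with the highest mean of the 8 genes, the median was -0.01. That value is tied to the choice of ovaries.

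**Figure D5:**
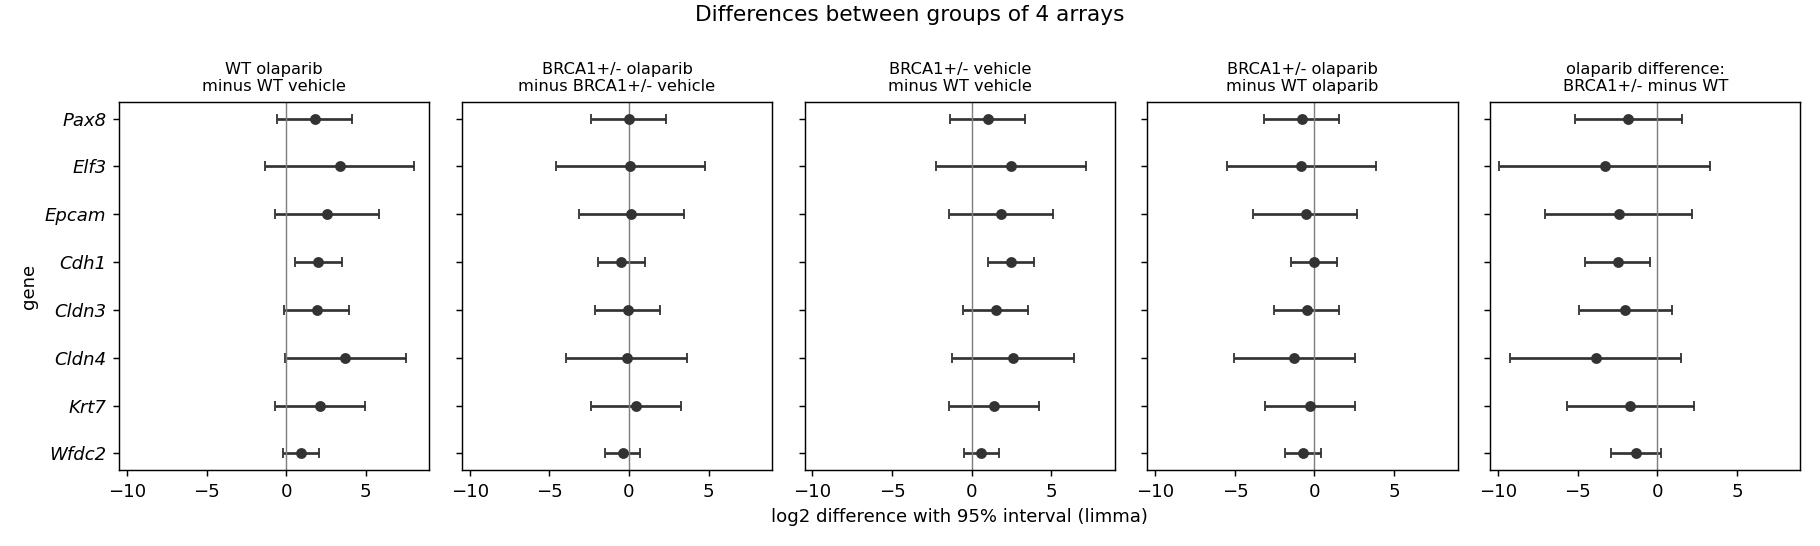
Log2 difference of the 8 genes in 5 comparisons of groups of 4 ovaries, with 95% intervals from limma; the panel at the right subtracts the WT response to olaparib from the BRCA1+/- response. All intervals cross 0 except those of Cdh1 for WT olaparib against WT vehicle, for BRCA1+/- vehicle against WT vehicle and for the interaction.

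Further genes of the secretory epithelium were read from a list of 33, of which 25 were tested. None was called in any comparison. In WT rats 21 of 25 had higher means with olaparib (median 1.30), and with vehicle 21 of 25 had higher means in BRCA1+/- than in WT ovaries (median 0.92). In the interaction 22 of 25 were below 0 (median -1.57). Per ovary, the list averaged 1.33 and 0.84 on BRCA1+/- olaparib ovaries 3 and 4, 1.78 and 0.57 on BRCA1+/- vehicle ovaries 3 and 4, 2.50 and 1.65 on WT olaparib ovaries 1 and 3, and between -1.13 and -0.51 on the other 10.

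The 3 genes of the list named by their mean signal did not split the ovaries in this way. Folr1, a folate receptor, read 4.48 to 6.19 over the 16 arrays, Clu, a secreted chaperone, 4.66 to 5.64, and Pigr, the receptor that carries polymeric immunoglobulin across epithelia, 2.85 to 6.22. For Folr1 the lowest value was that of WT olaparib ovary 3, which was among the highest for all 8 genes of the list. Lcn2, a siderophore-binding protein chosen after its values were seen, did split them, at 5.12 and 5.29 on BRCA1+/- olaparib ovaries 3 and 4 and at 2.35 and 2.81 on ovaries 1 and 2 of that group. In WT ovaries with olaparib Lcn2 read 7.12, 2.52, 5.88 and 3.56, against 3.48, 2.36, 2.48 and 3.04 with vehicle.

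Of 32 listed genes of epithelial junctions, 30 were tested and 0 were called. Their medians were 0.84 for olaparib in WT rats, -0.06 for olaparib in BRCA1+/- rats, 0.56 for genotype with vehicle, -0.25 for genotype with olaparib and -1.01 for the interaction. Widely expressed components such as Ctnnb1, the beta-catenin that ties E-cadherin to actin, read 4.94 to 5.94 on all 16 arrays. Spint2 and Lsr, the next genes of that list by mean signal, did not split the ovaries. Spint2 read 4.26 to 5.83, with its highest value on WT olaparib ovary 4, which was low for the secretory genes. Lsr read 3.72 to 4.59 on the 6 high ovaries and 4.09 to 4.99 on the 10 others. Rab25, a small GTPase of epithelial cells named after its values were seen, read 1.12 and -0.40 on BRCA1+/- olaparib ovaries 3 and 4, 1.86 and -0.72 on BRCA1+/- vehicle ovaries 3 and 4, 1.44 and 1.30 on WT olaparib ovaries 1 and 3, and -3.63 to -1.83 on the 10 others. Of 10 listed regulators of the Müllerian duct only Emx2 and Wnt7a were tested, and neither was called. Emx2, a homeobox factor, read 2.02 on BRCA1+/- olaparib ovary 3, 2.42 on BRCA1+/- vehicle ovary 3 and 3.35 and 2.43 on WT olaparib ovaries 1 and 3, and 0.10 to 1.60 on the other 12.

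Among all other features with a symbol, those nearest to the mean centred profile of the 8 genes were LOC691918, Krt33a, Arhgef4, Ngef, Ripk4, Perp, Lrrc56, Tmem79, Entrep1 and Catip. Their mean absolute difference from that profile was 0.164 to 0.274 on the log2 scale over 16 arrays, against a median of 1.66 over all features. The 8 genes themselves were farther from it, from 0.52 for Cldn3 to 1.40 for Elf3. Taken singly, the nearest feature was Lypd2 for Pax8 (0.413), Cxadrl1 for Epcam (0.356), Rab11fip1 for Wfdc2 (0.197), Kiaa2012 for Cdh1 (0.399), LOC103693001 for Krt7 (0.190), RGD1564308 for Cldn3 (0.339), Rprm for Cldn4 (0.347) and Capsl, a gene of the ciliated list, for Elf3 (0.402). The median over features differed between the genes, from 0.736 for Wfdc2 to 2.931 for Elf3, so these distances cannot be ranked against each other. No member was among the 2 nearest of another member.

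Krt7, Wfdc2 and Cldn4 had several probes. The Krt7 probe used, at chr7:140175626-140175685 of rn4 (plus strand), gave 2.11 for olaparib in WT rats, and its companions gave 1.83 and 2.17. For genotype with olaparib it gave -0.26, one companion gave -0.29 and the other 0.31. The Wfdc2 probe used, at chr3:155587996-155588055 (plus strand), gave 0.93 for olaparib in WT rats and its nearest companion 0.83. Another Wfdc2 probe, of opposite orientation, well above background on 9 arrays, gave 1.56. The companion Cldn4 probe was well above background on 6 of 16 arrays and on 0 of the 4 WT vehicle arrays, so its differences are not set beside those of the probe used. The other probes used lie at chr13:48258894-48258953 (minus) for Elf3, chr19:36511853-36511912 (plus) for Cdh1 and chr12:22817873-22817932 (plus) for Cldn4, all in rn4 as the array files give them, without a check against a genome and without an exon annotation.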

How the data were processed

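The authors prepared RNA with RNeasy Mini, labelled it with Cy3 and hybridised single-colour Agilent rat arrays, per the labels' protocols. Spots were read with Agilent Feature Extraction, 10.7 per the submitters' processing notes and 10.7.1.1 per the file headers. The deposited processed signal is an intensity, background-subtracted and detrended within each array per the file headers, with no scaling between arrays. The deposited series table holds log2 values, which were the log2 signal used here plus a constant per array (r = 1). Its scale and direction were settled by this match, and its column medians lay between -4.24 and -3.62. The mean spot signal and local background, also deposited intensity values, entered only an alternative.

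Replicate spots were averaged, 12 probes with outlier spots were left out, and the log2 processed signal minus each array's 75th percentile over non-control probes was used. A probe was kept if well above background on at least 3 of 4 arrays of a group (26820 probes). The probe with the highest mean stood for a gene, which left 20227 features. Gene names came from the array files, updated through a RefSeq gene table. Group means were compared in R 4.3.3 by limma 3.58.1, with a mean for each group of 4 over all 16 arrays (12 residual and 2.43 prior degrees of freedom) and Benjamini-Hochberg adjustment over all features. The limma and exact permutation tests were two-sided. Nothing says that ovaries came from separate litters or cages, and p-values measure the spread between these samples. The limma test was also tried on simulated data, with the spread of the fitted features and noise drawn independently for each feature.

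The members, the cell type lists and the tests were chosen with earlier results of these data known. Named by rule were all 9 members, the 10 features nearest to their mean profile, the 2 features nearest to each member, of which the nearest is printed, and the 3 strongest genes of a list, which are not printed for every list. Genes said to be named after their values were seen fall outside this rule. Lists share some genes, among them 5 of the 12 surface epithelium genes. Ovaries with the same number were treated as unpaired. The correlations of their deviations from group means ranged from -0.44 to 0.71, with medians of 0.22, 0.21, 0.35 and 0.05 for numbers 1, 2, 3 and 4. So wide a range cannot settle whether they pair. The alternatives were quantile normalization, normexp background correction, the series table, other filters, slide or replicate number as a block, array weights, other probes, single slides, arrays left out in turn and 6 ovaries left out. Protein sequences were not used here.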

Additional observations from a re-analysis of the deposited data

Results flagged for a closer look

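No single ovary stood apart within its group of 4 by Dixon's test in any of the 32 combinations of gene and group. The test cannot flag a group that splits into a high and a low pair, because the ovaries of a pair mask each other. Epcam split so in every group except WT vehicle, and the absence of flags says nothing about such splits.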

How the results depend on the processing

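No member was called under any alternative, and quantile normalization, the series table, other filters on dim probes and the slide as a block turned no sign. With the replicate number as a block the medians were 2.07 for olaparib in WT, -0.05 for olaparib in BRCA1+/-, 1.68 for genotype with vehicle, -0.65 for genotype with olaparib and -2.21 for the interaction, as without it, and no call changed. The signs that turned belonged to differences that had not passed, and the cause was not tested. For olaparib in BRCA1+/- they were Elf3 at -0.06 with normexp, Pax8 (0.17), Epcam (-0.09), Cldn3 (0.01) and Elf3 (-0.27) with array weights, Cldn4 at 0.34 by its next probe (well above background on 6 of 16 arrays), Pax8 at 0.36 within slide 1, and Cldn3 (0.17) and Elf3 (-0.13) within slide 2. Within slide 1 genotype with vehicle turned for Epcam (-0.83), Krt7 (-0.20), Cldn4 (-0.64) and Elf3 (-1.56). Within slide 2 genotype with olaparib turned for Pax8 (0.36), Epcam (1.90), Cdh1 (0.24), Krt7 (1.83), Cldn3 (1.2), Cldn4 (1.23) and Elf3 (1.96). The 6 ovaries of high ciliated level were chosen after seeing the data and are also those with the highest mean of the members. Without them, with 2 ovaries left in 3 of the groups, the median interaction was -0.01. There Pax8 (-0.10) and Wfdc2 (-0.22) turned for olaparib in WT, Pax8 (0.36) for olaparib in BRCA1+/-, and Pax8 (-0.27), Epcam (-0.32), Krt7 (-0.19), Cldn4 (-0.06) and Elf3 (-0.82) for genotype with vehicle. Pax8 (0.19), Wfdc2 (0.24), Cdh1 (0.91) and Krt7 (0.41) turned for genotype with olaparib, and Pax8 (0.46), Epcam (0.23), Wfdc2 (0.05) and Krt7 (0.61) for the interaction. With 1 array left out in turn, olaparib in BRCA1+/- ranged from -0.69 to 0.94 for Pax8, -0.58 to 1.21 for Epcam, -0.22 to 1.41 for Krt7, -0.53 to 0.58 for Cldn3, -1.18 to 1.18 for Cldn4 and -1.68 to 1.72 for Elf3, and each of the 8 BRCA1+/- ovaries turned at least 1 of these signs. Genotype with olaparib ranged from -1.48 to 0.48 for Epcam, -0.48 to 0.35 for Cdh1, -1.47 to 0.57 for Krt7, -1.07 to 0.32 for Cldn3 and -2.19 to 0.41 for Elf3, turned by leaving out WT olaparib ovary 1 or 3 or BRCA1+/- olaparib ovary 1, 2 or 4. Leaving out 1 array turned no sign for olaparib in WT, genotype with vehicle or the interaction. Dim signal limits Cldn4, whose low ovaries lie near background, and the lowest Elf3 value.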
